A study of Mus musculus with 28 samples.

Results

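The genes described here encode the constitutive proteasome: the subunits of its core and regulatory particles, the chaperones that assemble them, and its further activators and inhibitor. They were taken as every gene with a probe set of its own whose symbol starts with Psma, Psmb, Psmc, Psmd, Psme, Psmf or Psmg followed by a number. The interferon-inducible members Psmb8, Psmb9, Psmb10, Psme1 and Psme2 were left out. The rule took 45 of 18193 genes on the array. Of these, 43 encode proteasome subunits, assembly chaperones, activators or the inhibitor. Psmc3ip (a partner of recombinases in meiosis) and Psme3ip1 are none of these and entered through the symbol rule. Where a gene had several probe sets, the one with the highest mean was used, which was a choice for 26 of the 45 genes.

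The series measured RNA from mouse spleen on 28 expression arrays, in 2 experiments that were fitted separately. All mice carried floxed alleles of the nuclear receptor gene Pparg. Mice without the recombinase, PPAR g flfl; MMTV-Cre-, served as wild-type, and null mice, PPAR g flfl; MMTV-Cre+, expressed Cre under the MMTV promoter, which the series text places in epithelial and immune cells, so that other splenic cells may keep the gene. The diet was a control diet or one supplemented with the plant hormone abscisic acid (ABA), and mice were challenged with lipopolysaccharide (LPS), a bacterial cell wall component that activates innate immune cells, or not. The wild-type-only experiment had 12 arrays: 4 with ABA and LPS, 4 with control diet and LPS, 2 with ABA alone and 2 with control diet alone. The experiment with both genotypes had 16 arrays, 2 for each of the 8 combinations of genotype, diet and LPS. Age, the dose of LPS and the time after it are not given in the sources used here. Whether each array stands for an animal of its own is likewise unstated, and every p-value here reflects the spread among arrays alone, which may be technical.

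The proteasome degrades proteins that carry a ubiquitin tag. Its core particle is a barrel of stacked rings, in which alpha subunits (Psma genes) form the outer rings and gate the channel and beta subunits (Psmb genes) form the inner rings; Psmb5, Psmb6 and Psmb7 carry the peptidase sites. The regulatory particle caps the barrel, with ATPases (Psmc genes) that unfold substrates and non-ATPase subunits (Psmd genes) that bind ubiquitin and remove it. In immune cells the 3 peptidase subunits can be replaced by Psmb8, Psmb9 and Psmb10, which gives the immunoproteasome known for producing peptides for antigen presentation.

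All values are log2 expression as the authors deposited them, with a lowest possible value of 2.29 for wild-type-only arrays and 2.24 for the others. Between 35.9% and 41.9% of the probe sets of an array sat at that value. Arrays of an experiment correlated at 0.942 or more over all probe sets, and arrays of different experiments at 0.769 to 0.837, so no level is set across the experiments. Spleen markers were present: the means of 9 B cell genes lay at 7.90 to 10.1 and of 9 T cell genes at 6.68 to 8.54 across the arrays, although Pax5 of the B cell list stayed within 0.5 of the floor throughout the experiment with both genotypes. Pparg was low in both genotypes and the place of its probe set relative to the deleted part is not known, and it gives no check of the genotypes. In bulk tissue, fewer cells of a type and less RNA per cell cannot be told apart.

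Nearly all members were measurable. Of the 45, 44 passed the filter on low values in both experiments. Psmb11, the beta subunit of the thymus proteasome, stood at the lowest value on all arrays and was not tested. Psma8, the alpha subunit of the testis proteasome, lay within 0.5 log2 units of the lowest value on all 12 wild-type-only arrays. In that experiment 3 more members were weak: Psmg4 spanned 2.29 to 3.44, Psmd9 3.05 to 3.82 and Psmg3 3.57 to 4.05. Psmd3 was nearly constant there, at 7.17 to 7.23, so the values of these members say little about change.

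Core particle genes were higher with LPS in spleens of the wild-type-only experiment. Of the 44 tested members, 22 rose and 0 fell with LPS averaged over diets (limma, Benjamini-Hochberg adjusted p below 0.05), where 15.1% of all 12059 tested genes rose and 12% fell. The median change was 0.56 log2 units over the members and 0.00 over all genes, and 41 members were above 0. At an unadjusted p below 0.05, 29 members were higher and 0 lower, against 19.6% and 18.5% of all genes. All LPS arrays lay above all arrays without LPS for 15 members, against 10.7% of all genes.

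**Figure D1:**
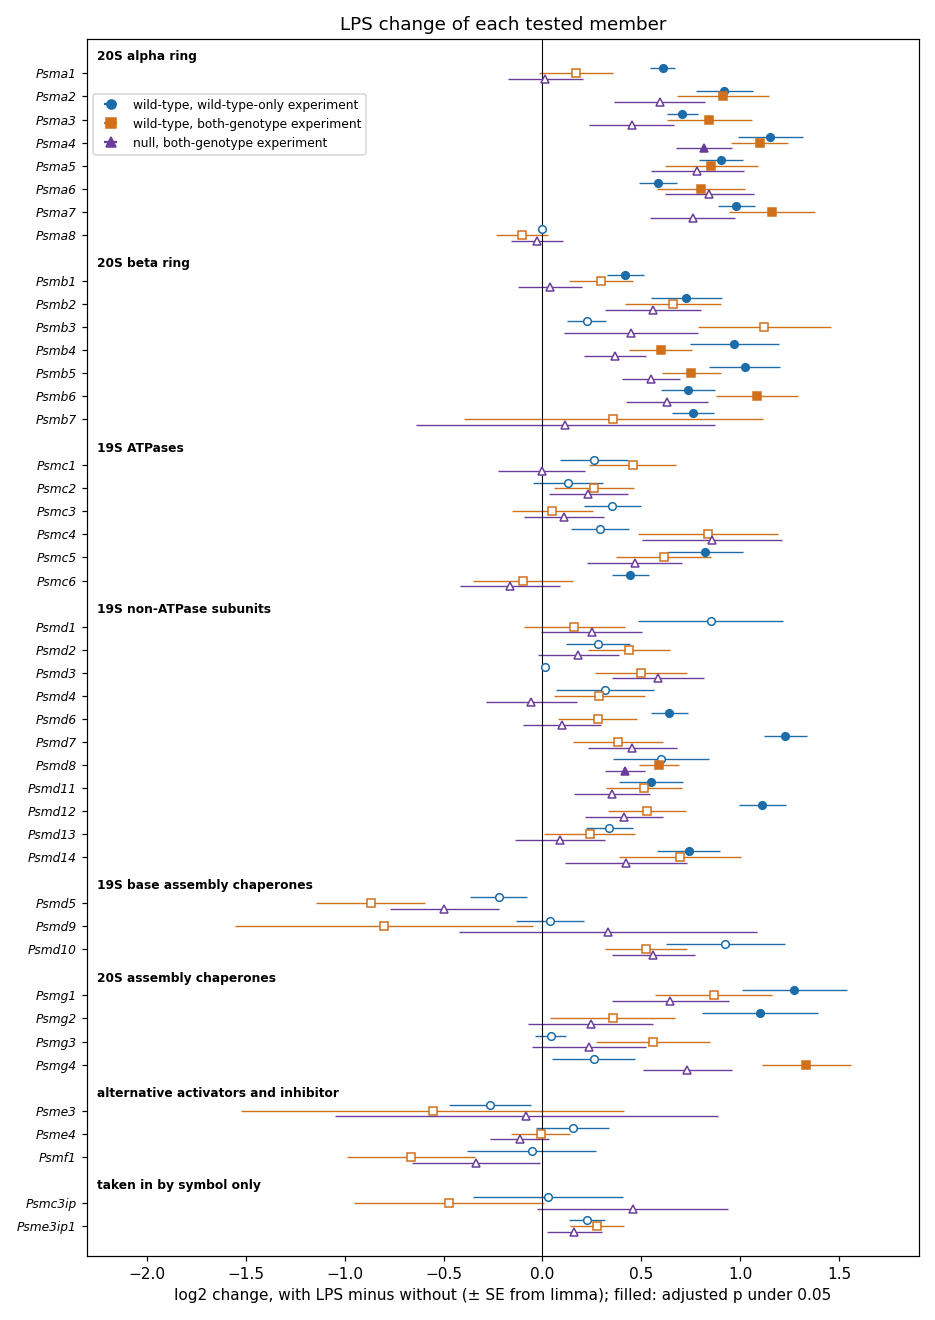
The change with LPS (log2, x axis) for each tested member (y axis, ordered by role), with bars of 1 SE, for wild-type-only arrays and for wild-type and null mice of the experiment with both genotypes; filled points passed the adjusted p of 0.05. In the wild-type-only experiment the alpha subunits lie between 0.00 for Psma8 and 1.15 for Psma4. Psme3, Psmd5 and Psmf1 lie below 0 in all 3 sets without passing, and another Psme3 probe set stood at 0.34, -0.22 and 0.25 in turn.

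In the alpha ring 7 of 8 genes rose in that experiment, with a median of 0.80. Psma4 was 9.80, 9.79, 10.26 and 9.78 on the 4 arrays with ABA and LPS, 9.68, 9.92, 10.20 and 10.28 with control diet and LPS, 9.16 and 8.91 with control diet alone, and 8.27 and 8.91 with ABA alone. Every LPS array was above every array without LPS. The change was 1.15 ± 0.16 (SE), or 2.22-fold, with an adjusted p of 0.00108. Psma7 was 11.35, 11.45, 11.83 and 11.41 with ABA and LPS and 11.71, 11.82, 11.84 and 11.85 with control diet and LPS, against 10.89 and 10.68 with control diet alone and 10.48 and 10.66 with ABA alone. These sets did not overlap either, and the change was 0.98 ± 0.09 (adjusted p = 9.82e-05). The smallest rise in the ring was that of Psma6 at 0.58 ± 0.10, whose probe set may cross-hybridise by its name, followed by Psma1 at 0.61 ± 0.06. The testis subunit Psma8 stayed at its floor.

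Of the 7 tested beta ring genes 6 rose, with a median of 0.74. Psmb5, the chymotrypsin-like peptidase, was 8.54, 8.81, 9.25 and 8.55 with ABA and LPS, 8.66, 8.61, 8.68 and 9.01 with control diet and LPS, 8.19 and 7.41 with control diet alone and 7.74 and 7.62 with ABA alone. All 8 LPS arrays were above the other 4, by 1.02 ± 0.18 on average (2.03-fold, adjusted p = 0.00331). Psmb6, the caspase-like peptidase, lay at 9.22 to 10.13 on the 8 LPS arrays and at 8.71 to 8.91 on the 4 others, a rise of 0.74 ± 0.14 (adjusted p = 0.00421). Psmb7, the trypsin-like peptidase, rose by 0.76 ± 0.11 (adjusted p = 0.00104). The structural subunit Psmb3 had the smallest change, 0.22 ± 0.10, and did not pass (adjusted p = 0.130).

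**Figure D2:**
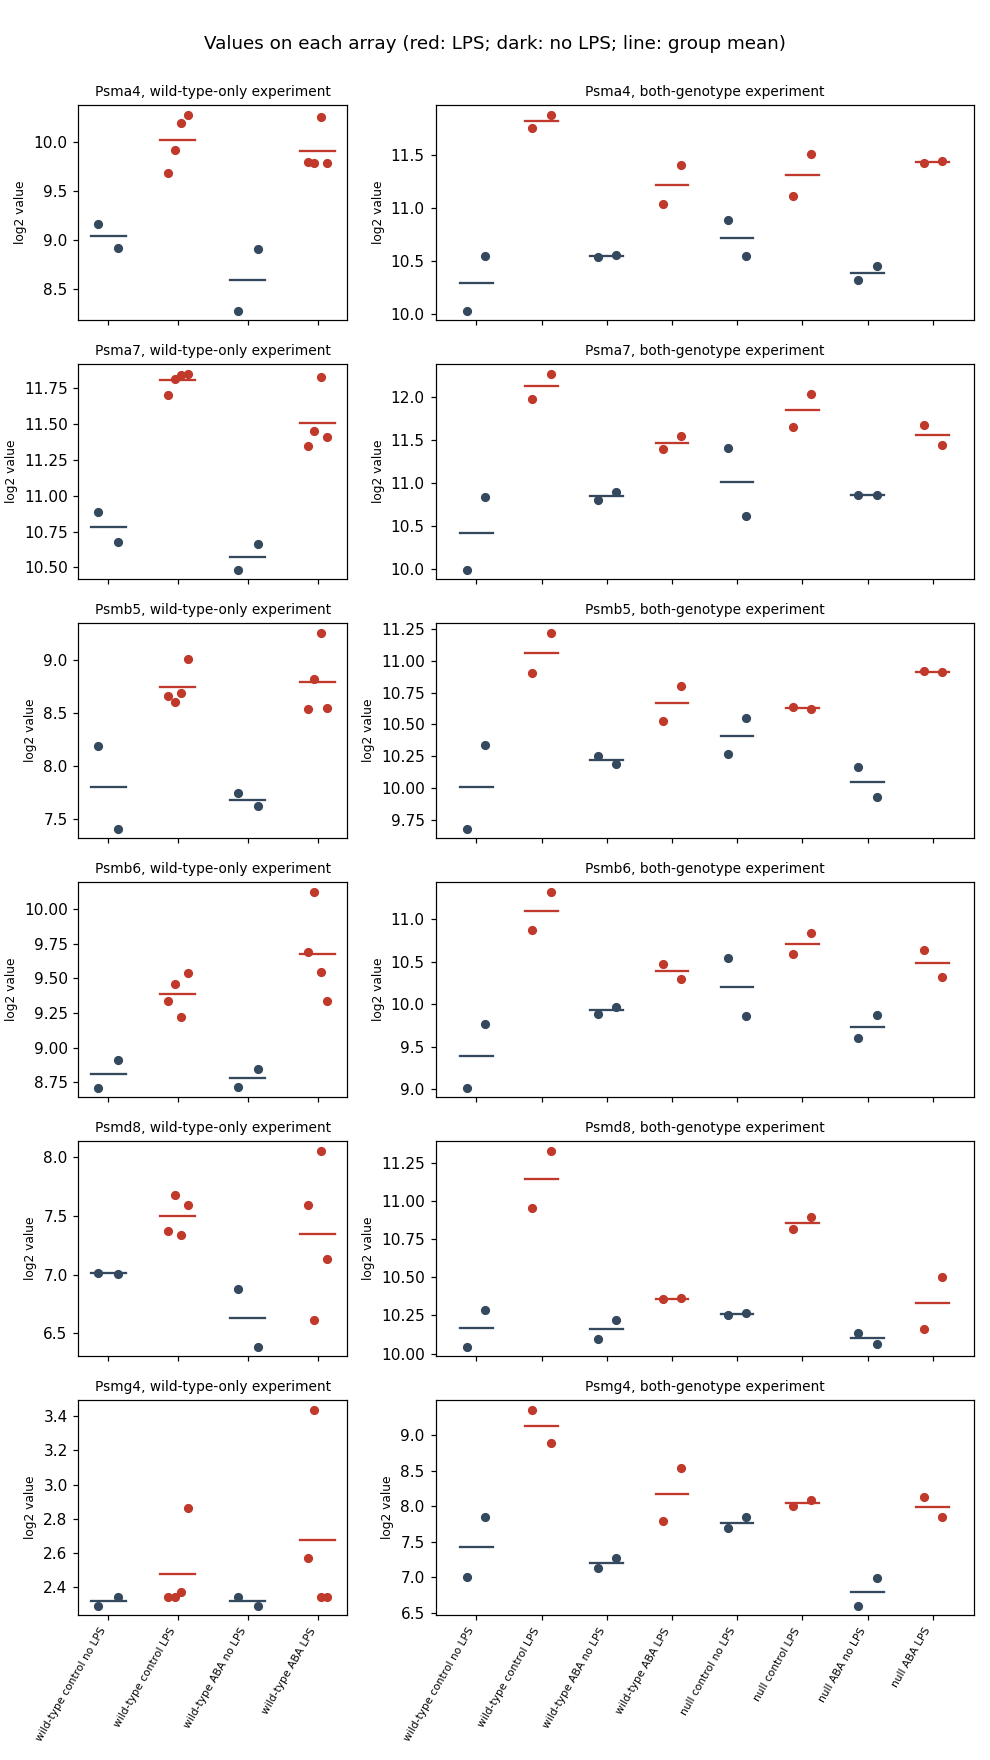
The log2 value (y axis) of selected members on every array of both experiments, grouped by genotype, diet and LPS (x axis). Psma4 lies at 9.68 to 10.28 on the wild-type-only arrays with LPS and at 8.27 to 9.16 on those without.

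In the regulatory particle fewer members passed on the probe sets used. Of its 6 ATPases 2 rose, Psmc5 by 0.82 ± 0.19 (adjusted p = 0.0137) and Psmc6 by 0.44 ± 0.09 (adjusted p = 0.00774). The smallest change was 0.13 ± 0.18 for Psmc2, whose probe set may also cross-hybridise. Other probe sets of Psmc2 were at 0.42 and -0.19. The other probe set of Psmc4 was at 0.76, against 0.29 for the one used. Its unadjusted p (limma) was smaller than that of Psmc6, which passed, so the count of ATPases depends on the probe set chosen. Of the 11 non-ATPase subunits 5 rose, with a median of 0.60. Psmd7, the inactive partner of the deubiquitinase, had the largest change: 7.80, 7.60, 8.02 and 7.71 with ABA and LPS, 8.05, 8.28, 7.92 and 8.17 with control diet and LPS, 6.57 and 7.02 with control diet alone, and 6.67 and 6.61 with ABA alone. The LPS arrays lay wholly above, by 1.23 ± 0.11 (2.34-fold, adjusted p = 6.83e-05). Psmd12, a scaffold subunit of the lid, ranged from 8.56 to 9.22 with LPS and from 7.56 to 8.12 without, a rise of 1.11 ± 0.12. Psmd14, the deubiquitinase itself, rose by 0.74 ± 0.16 (adjusted p = 0.00914), as did Psmd6 by 0.64 ± 0.09 and Psmd11 by 0.55 ± 0.16. Psmd4, a ubiquitin receptor, spanned 7.67 to 8.70 with LPS and 7.28 to 8.61 without, and its change of 0.31 ± 0.25 did not pass (adjusted p = 0.387).

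Assembly factors and activators differed. Psmg1 and Psmg2, which together start the assembly of the alpha ring, rose. Psmg1 was 5.74, 6.14, 6.88 and 5.17 with ABA and LPS, 6.51, 6.38, 6.60 and 6.77 with control diet and LPS, 5.14 and 5.17 with control diet alone, and 4.88 and 4.81 with ABA alone. The lowest LPS array was only just above the highest of the others, and the change was 1.27 ± 0.27 (2.42-fold, adjusted p = 0.00788). Psmg2 changed by 1.10 ± 0.30 (adjusted p = 0.0241), and the weak Psmg3 and Psmg4 by 0.04 and 0.26 without passing. Of the 3 chaperones of the regulatory particle's base none rose or fell: Psmd10 was at 0.92 ± 0.30 (adjusted p = 0.0502), Psmd9 at 0.04 and Psmd5 at -0.22. The activators and the inhibitor also gave 0 calls. Psme3, a nuclear activator, was at -0.26 ± 0.21 (adjusted p = 0.385), Psme4, an activator known for histone degradation in the testis, at 0.15 ± 0.18 (adjusted p = 0.600), and Psmf1, an inhibitor of the core, at -0.05 ± 0.33 (adjusted p = 0.945). Psmc3ip, at 0.03 ± 0.38, and Psme3ip1, at 0.23 ± 0.09, did not pass either.

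These calls were mostly carried by no single array. Of the 22, 17 passed whichever array was left out; the exceptions were Psmb2, Psmb4, Psmc5, Psmd11 and Psmg2. Other probe sets bore on 12 of the 22 genes: 21 of their 26 other probe sets were above 0 and 1 was at 0, and for 0 genes did one of them oppose the call at an unadjusted p below 0.05. At that p (limma) another probe set was higher for Psma5, Psma6, Psma7, Psmd11 and Psmg2. None was for Psma1, Psma3, Psmb1, Psmb4, Psmc6, Psmd6 and Psmd7, with 0.07 for Psma3 and 0.12 for Psmd6. With the mean of all probe sets, Psma1 and Psmb1 did not pass. Erythroid markers moved with LPS in the same samples: the mean of 11 such genes was 4.64 to 6.48 on arrays with LPS and 5.88 to 10.4 without, and 5 of the 11 fell, with Hba-a1 near the lowest value on all arrays. The shares over all tested genes were 15.1% risen and 12% fallen. Among T cell genes 5 of 9 fell, and among B cell genes 3 of 9. Macrophage genes gave 5 fallen and 2 risen of 12, and neutrophil genes 4 fallen and 1 risen of 11. Plasma cell genes gave 2 risen and 1 fallen of 7. Cell cycle genes gave 2 fallen of 15, near the share of all genes, with 15 below 0 and 0 above. The part of these cell types in the proteasome changes was not tested. With the erythroid mean as a covariate, 18 members rose, against 8.52% of all genes.

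The promoters of a few risen genes are given for reference, because these genes moved together and the antioxidant response element, the CCAAT box and the ETS core are sequence motifs that proteasome promoters are known for. RefSeq's windows covered 37 of the 45 members, in 40 windows, of which the 250 bases before each transcription start were searched on both strands. Each sequence below is from GRCm38.p6, runs 5′ to 3′ on the strand of the gene and ends at the base before the start. Capitals mark the matched motif.

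Psmb5 (chr14:54617996-54618245, minus strand; TGACNNNGC in capitals, 47 to 39 bases before the start): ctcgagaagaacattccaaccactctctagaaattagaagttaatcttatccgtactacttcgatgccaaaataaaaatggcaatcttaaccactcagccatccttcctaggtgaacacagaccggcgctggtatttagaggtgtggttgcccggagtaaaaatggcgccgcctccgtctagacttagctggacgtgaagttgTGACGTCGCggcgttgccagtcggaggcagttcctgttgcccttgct
Psmb6 (chr11:70525107-70525356, plus strand; TGACNNNGC in capitals, 9 to 1 bases before the start): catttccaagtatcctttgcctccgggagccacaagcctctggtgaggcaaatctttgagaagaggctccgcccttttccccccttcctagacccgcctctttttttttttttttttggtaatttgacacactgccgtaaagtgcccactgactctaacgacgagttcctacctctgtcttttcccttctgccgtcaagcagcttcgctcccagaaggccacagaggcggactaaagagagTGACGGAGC
Psma5 (chr3:108256676-108256925, plus strand; CCGGAA on the other strand in capitals, 154 to 149 bases before the start): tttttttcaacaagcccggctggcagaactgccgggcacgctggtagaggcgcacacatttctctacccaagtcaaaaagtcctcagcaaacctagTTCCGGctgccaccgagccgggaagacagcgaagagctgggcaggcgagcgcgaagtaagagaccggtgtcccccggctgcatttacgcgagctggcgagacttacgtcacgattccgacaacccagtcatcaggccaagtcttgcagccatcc
Psma2 (chr13:14612992-14613241, plus strand; CCAAT in capitals, 54 to 50 bases before the start): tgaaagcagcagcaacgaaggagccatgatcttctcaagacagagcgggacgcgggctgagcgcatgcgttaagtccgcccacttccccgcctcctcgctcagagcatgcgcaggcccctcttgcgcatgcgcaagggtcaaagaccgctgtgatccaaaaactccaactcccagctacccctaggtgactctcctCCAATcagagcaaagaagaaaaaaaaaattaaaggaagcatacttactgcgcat
Psma4 (chr9:54950609-54950858, plus strand; no match): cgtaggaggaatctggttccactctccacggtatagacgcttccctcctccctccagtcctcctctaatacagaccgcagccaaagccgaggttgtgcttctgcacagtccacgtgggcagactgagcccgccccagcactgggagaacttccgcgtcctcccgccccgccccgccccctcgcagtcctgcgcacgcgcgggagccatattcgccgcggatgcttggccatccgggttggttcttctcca

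The core of the antioxidant response element, TGACNNNGC, was found in 12.5% of the 40 member windows and in 10.16% of 32851 windows of all genes; the genes were Psmb5, Psmb6, Psmc6, Psmd12 and Psmd9. CCAAT was in 37.5% against 33.85%. The ETS core CCGGAA was in 47.5%, or 19 windows of 18 genes, against 12.03%. The interferon-stimulated response element, searched as GAAA, any 2 bases and GAAA, was in 7.5% against 2.98%, in Psmb3, Psmd4 and Psmd9. Of the 9 genes that rose in both wild-type sets (below), 2 held TGACNNNGC, 4 CCAAT, 2 CCGGAA and 0 the interferon-stimulated element. A match describes the letters of a window and does not show a bound factor.

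In wild-type mice of the experiment with both genotypes, fewer members passed but the core particle again led. LPS gave 11 risen and 0 fallen members of 44, where 8.55% of 13377 tested genes rose and 5.49% fell (limma, Benjamini-Hochberg). The median was 0.48 over members and 0.00 over all genes, and 36 members were above 0. At an unadjusted p below 0.05, 20 were higher and 1, Psmd5, lower, against 15.4% and 11.9% of all genes. For 10 members all 4 LPS arrays lay above all 4 others, against 9.47% of all genes.

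The alpha ring gave 6 of the 11 calls, with a median of 0.85. Psma4 was 11.04 and 11.40 with ABA and LPS and 11.75 and 11.88 with control diet and LPS, against 10.53 and 10.56 with ABA alone and 10.03 and 10.55 with control diet alone. The sets did not overlap, and the change was 1.10 ± 0.14 (adjusted p = 0.00183), against 1.15 in the other experiment. Psma7 was 11.39, 11.55, 11.97 and 12.26 with LPS and at most 10.90 without, a rise of 1.16 ± 0.22 (adjusted p = 0.0098). Psma2 (0.91 ± 0.23), Psma5 (0.85 ± 0.23), Psma3 (0.84 ± 0.22) and Psma6 (0.80 ± 0.22) also rose. The lowest was Psma8 at -0.10, near its floor.

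In the beta ring 3 of 7 genes rose. Psmb6 was 10.48, 10.30, 10.88 and 11.33 with LPS and 9.89, 9.96, 9.02 and 9.77 without, a rise of 1.09 ± 0.21 (adjusted p = 0.0107). Psmb5 was 10.53, 10.80, 10.91 and 11.22 with LPS and 10.25, 10.18, 9.68 and 10.34 without, a rise of 0.75 ± 0.15 (adjusted p = 0.0124), and Psmb4, a structural subunit, rose by 0.60 ± 0.16 (adjusted p = 0.0363). Neither peptidase's groups overlapped. Psmb3 had the highest change of the ring, 1.12 ± 0.34, but did not pass (adjusted p = 0.0586). Psmb7 gave 0.36 ± 0.75 (adjusted p = 0.860), and its arrays fell into separate levels: 4 of the 16 arrays lay at 9.32 to 9.61 and the other 12 at 11.2 to 12.3. These 4 were replicate 2 of wild-type ABA with LPS, null ABA with LPS, wild-type control without LPS and null control without LPS. The low level thus followed none of LPS, diet or genotype alone. In both genotypes it fell on replicate 2 of the same combinations of diet and LPS. Replicate 1 of those groups lay at the upper level, and the cause was not tested.

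No ATPase passed; Psmc4 was highest at 0.84 ± 0.35 (adjusted p = 0.165) and Psmc6 lowest at -0.10. The counts for this particle rest on the probe set used for each gene. The other probe set of Psmc4 was at 0.91, while those of Psmc6 were at -0.06 and -0.08. Psmd11 was at 0.51, and its other tested probe sets at 0.48, 0.67, 0.02 and -0.11. The values of 0.91 and 0.48 had a smaller unadjusted p (limma) than Psma6, which passed. Of the 11 non-ATPase subunits only Psmd8, a lid subunit, rose on the probe sets used. It was 10.36 and 10.36 with ABA and LPS, 10.95 and 11.33 with control diet and LPS, 10.10 and 10.22 with ABA alone, and 10.05 and 10.28 with control diet alone. The sets did not overlap, although the ABA arrays with LPS were close to those without, and the change was 0.59 ± 0.10 (adjusted p = 0.0071). Psmd14 stood at 0.70 ± 0.31 (adjusted p = 0.181) and Psmd4 at 0.29 ± 0.23. Psmg4, which pairs with Psmg3 in alpha ring assembly, was 7.79, 8.55, 9.36 and 8.89 with LPS and 7.13, 7.28, 7.01 and 7.85 without. The lowest LPS array lay just under the highest array without LPS, and the change was 1.33 ± 0.22 (2.52-fold, adjusted p = 0.00617). Psmg1 at 0.87 ± 0.30 (adjusted p = 0.0891), Psmg3 at 0.56 and Psmg2 at 0.35 did not pass.

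Of the other members outside the particles, none passed. Psmd10, a base chaperone, was at 0.52 ± 0.21 (adjusted p = 0.138) and Psmd9 at -0.80 ± 0.75. Psmd5, a chaperone of ATPase assembly, was at -0.87 ± 0.28 (adjusted p = 0.0706). Psmf1 was at -0.66 ± 0.32 (adjusted p = 0.229), Psme4 at -0.01 and Psme3 at -0.55 ± 0.97, with Psme3 spread over 4.22 to 9.80 across the 16 arrays. Psmc3ip was at -0.47 and Psme3ip1 at 0.28, neither of which passed.

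These 11 calls depended on single arrays more than the 22. Only Psma4, Psma7, Psmb6, Psmd8 and Psmg4 passed whichever array was left out. The count was 5 without replicate 2 of control diet with LPS or of ABA with LPS, 6 without replicate 1 of control diet with LPS, and 7 without replicate 1 of control diet without LPS, of ABA without LPS or of the null mice on ABA without LPS. It was 21 without replicate 2 of control diet without LPS. Replicate 1 of wild-type control without LPS had the lowest value of all 16 arrays for 31 of the 44 members, and without it the median change was 0.32. The same libraries differed in other cells: the erythroid mean was 5.79 to 7.14 with LPS and 9.57 to 12.1 without (7 of 10 fell), the cell cycle mean 7.04 to 7.73 and 8.83 to 11.1 (10 of 16 fell) and the neutrophil mean 8.96 to 10.1 and 7.01 to 8.19 (6 of 11 rose). Of 12 macrophage genes 4 fell and 1 rose, and of 6 plasma cell genes 1 rose. The shares over all tested genes were 8.55% risen and 5.49% fallen. The part of these cells was not tested. With the erythroid mean as a covariate none of the 11 passed, 1.79% of all genes rose (239, with 577 fallen), and the members' median was 0.69.

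**Figure D3:**
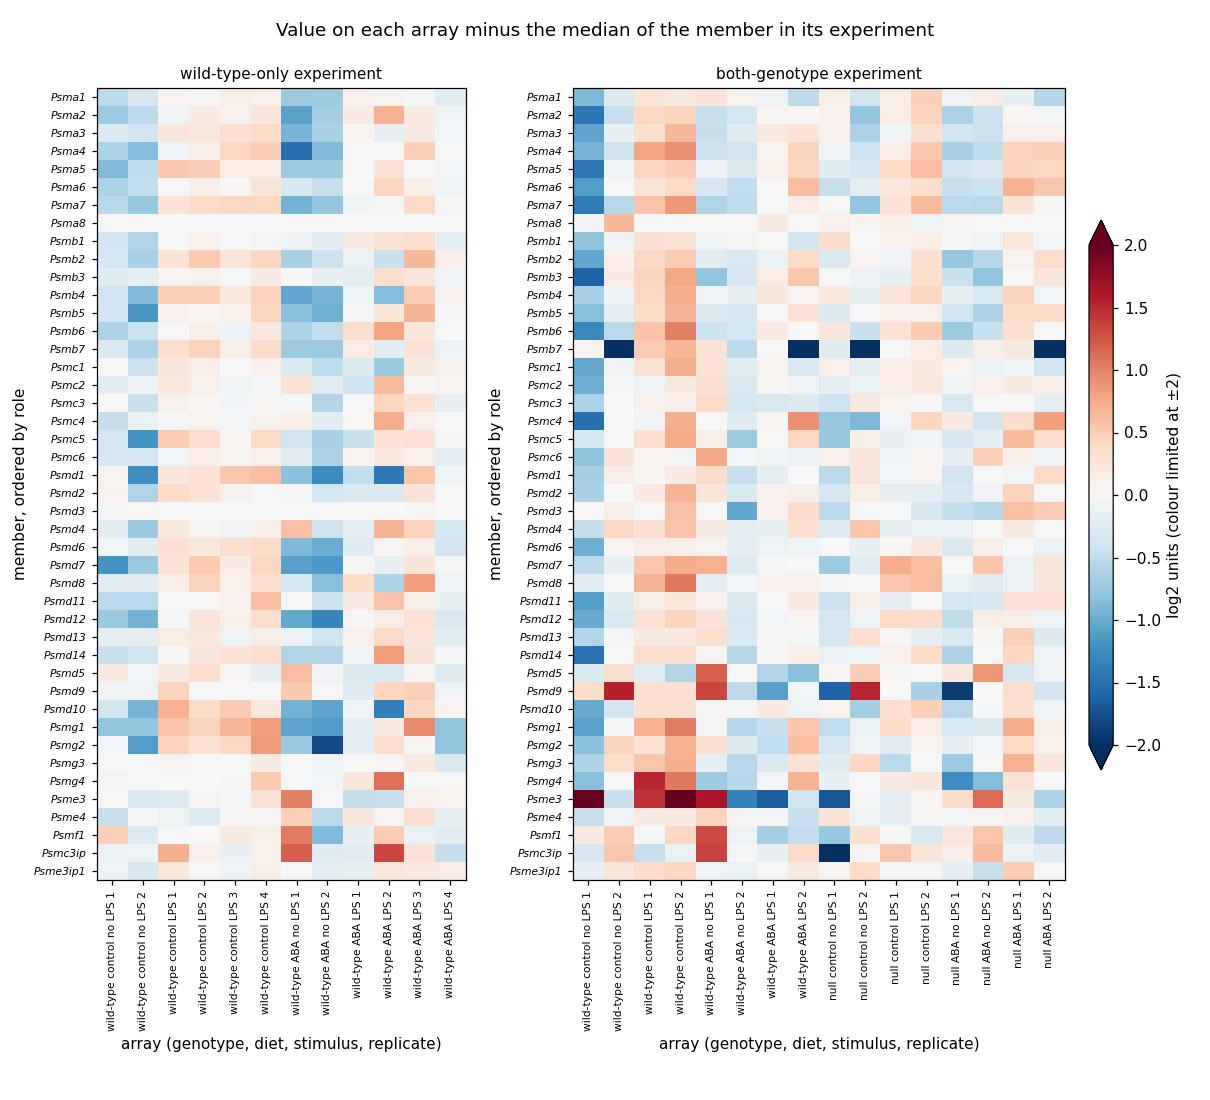
The value of every tested member (y axis, ordered by role) on each array (x axis, by group), minus its own median over the arrays of the experiment. Colour gives this deviation in log2 units, with a limited range. Replicate 1 of wild-type control without LPS in the experiment with both genotypes has a median deviation of -0.81, and replicate 2 of wild-type control with LPS one of 0.50.

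Between the wild-type sets, 9 genes rose in both: Psma2, Psma3, Psma4, Psma5, Psma6, Psma7, Psmb4, Psmb5 and Psmb6. They were 40.9% of the 22 and 81.8% of the 11, and on the probe sets used all belong to the core particle. Of the 11265 genes tested in both experiments, 6.81% rose in both. The experiments share no arrays. In 1 fit of all 20 wild-type arrays, 26 members rose, against 19.1% of all genes, and Psmd5 fell, by 0.55 (adjusted p = 0.0170, limma), against 16.5%.

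In null mice the members lay in the same direction with fewer calls. LPS gave 2 risen and 0 fallen members, where 3.95% of all genes rose and 3.45% fell; the median was 0.36 over members and -0.01 over all genes. Above 0 were 36 members, and for 7 all 4 LPS arrays lay above all 4 others, against 6.5% of all genes. At an unadjusted p below 0.05, 14 were higher and 0 lower, against 9.95% and 12.3% of all genes. Psma4 was 11.42, 11.44, 11.11 and 11.50 with LPS and 10.32, 10.45, 10.89 and 10.55 without. The sets did not overlap, the rise was 0.82 ± 0.14 (adjusted p = 0.0109, limma), and it passed whichever array was left out. Psmd8 was 10.16 and 10.50 with ABA and LPS and 10.82 and 10.90 with control diet and LPS, against 10.06 to 10.26 without LPS. These ranges overlapped, and its rise of 0.42 ± 0.10 (adjusted p = 0.0431) passed in 5 of 16 fits with an array left out. The count of risen members was 6 without replicate 1 or 2 of wild-type control without LPS, arrays that enter this contrast only through the shared estimate of spread. It was 1 without any of the 4 wild-type ABA arrays, either null array with ABA alone, replicate 2 of null ABA with LPS, or either null array with control diet and LPS, and 2 without each of the remaining arrays.

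Core genes and the chaperone Psmg4 lay close to the threshold in null mice: Psma6 at 0.84 ± 0.22 (adjusted p = 0.0559), Psmb5 at 0.55 ± 0.15 (adjusted p = 0.0596), Psma7 at 0.76 ± 0.22 (adjusted p = 0.0708), Psma5 at 0.78 ± 0.23 (adjusted p = 0.0827), Psmg4 at 0.73 ± 0.22 (adjusted p = 0.0866) and Psmb6 at 0.63 ± 0.21 (adjusted p = 0.106). With each array centred on its median, these 6 rose as well, which made 8 members, against 6.64% of all genes. That centring moved the median change of all genes from -0.01 to 0.13 and the split of all calls from 528 risen and 462 fallen to 888 and 394. Among the other members, Psmc4 was at 0.86 ± 0.35, Psmg1 at 0.65, Psmd14 at 0.42, Psmb7 at 0.12, Psmd4 at -0.06, Psmf1 at -0.34 and Psmd5 at -0.50, none of which passed. Erythroid markers moved less clearly here (7.52 to 10.1 with LPS, 7.21 to 11.9 without, 0 of 10 fell). Of 11 neutrophil genes 4 rose, of 12 macrophage genes 3 fell and 1 rose, and of 9 T cell genes 1 fell. The shares over all tested genes were 3.95% risen and 3.45% fallen. The pancreas list had a median change of -3.82, with 12 of 12 genes below 0 and 1 fallen, and its mean was 2.98 to 12.3 on null arrays without LPS and 2.89 to 3.14 with it; 2 arrays had high Cpa1. The part of these cells in the members' changes was not tested, apart from the fit without the 2 arrays, in which 1 member rose.

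The difference between genotypes was tested directly. For the LPS by genotype interaction 0 members passed (limma, Benjamini-Hochberg), where 0.0299% of all genes did, and at an unadjusted p below 0.05 the count was 0 members, against 4.46% of all genes. The median interaction was -0.15 over members and -0.07 over all genes, and it was 0.02 over members without replicate 1 of wild-type control without LPS. The smallest p-values belonged to Psmg4 at -0.60 ± 0.32, Psmb6 at -0.46 ± 0.29 and Psmc1 at -0.46 ± 0.31, all with an adjusted p of 0.943 by limma. The fewer calls in null mice are therefore not shown to be a smaller response.

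The 3 constitutive peptidase subunits were set against the immunoproteasome subunits that replace them. Psmb8, Psmb9, Psmb10 and the activator subunit Psme1 all rose in each LPS comparison, by 1.17, 0.91, 0.91 and 1.53 in the wild-type-only experiment, by 1.84, 2.30, 2.31 and 1.82 in wild-type and by 1.46 to 1.99 in null mice of the other; the probe set of Psme2, shared with another gene, was not analysed here. In the wild-type-only experiment the changes of both kinds differed by less than the spread between arrays: the change of Psmb8 exceeded that of Psmb5 by 0.14 (two-sided exact permutation p = 0.684), Psmb9 that of Psmb6 by 0.18 (exact p = 0.676) and Psmb10 that of Psmb7 by 0.14 (exact p = 0.218). Adjusted over the 6 tests these were 0.684, 0.684 and 0.327, and 0.00444 was the smallest p that the 225 arrangements within diet could give.

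In the experiment with both genotypes the inducible subunits rose further than the constitutive ones. Over both genotypes Psmb8 changed by 1.67 and Psmb5 by 0.65, Psmb9 by 2.06 and Psmb6 by 0.86, and Psmb10 by 2.15 and Psmb7 by 0.24. The difference Psmb8 minus Psmb5 was 1.77 to 2.00 on the 8 LPS arrays and -0.16 to 1.59 on the 8 others, without overlap, and grew by 1.02 (exact permutation p = 0.00154, the smallest that 1296 arrangements allow; adjusted 0.00463). Psmb9 minus Psmb6 was at least 1.01 with LPS and -1.04 to 1.17 without, overlapping slightly, and grew by 1.20 (exact p = 0.00154, adjusted 0.00463). Psmb10 minus Psmb7 was -0.49 to 2.57 and -3.26 to 0.11 and grew by 1.91 (exact p = 0.0201, adjusted 0.0401). That last value carries the separate levels of Psmb7: its adjusted p ran from 0.00926 to 0.114 as arrays were left out in turn and lay above 0.05 for 10 of the 16. The difference between the experiments was not tested.

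**Figure D4:**
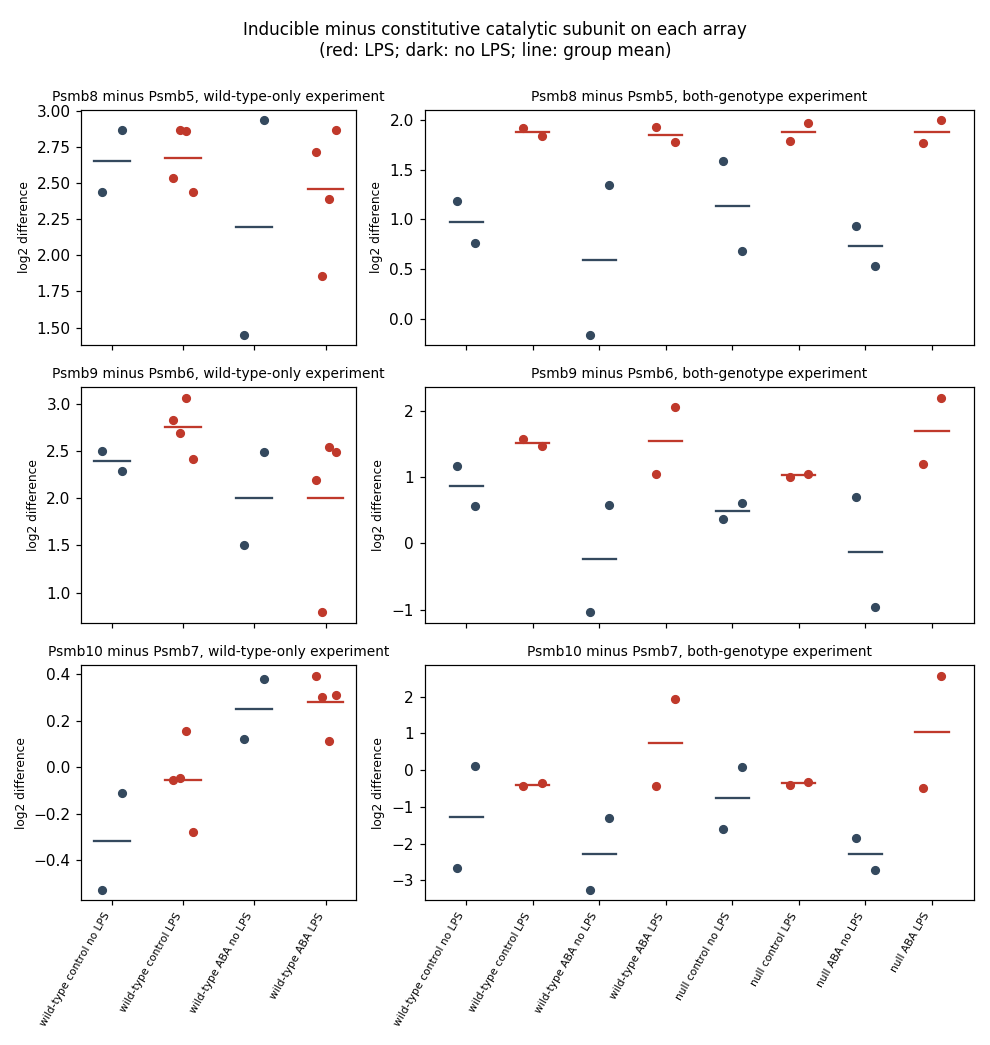
The difference in log2 value between each inducible subunit and the constitutive subunit it replaces (y axis), per array, with and without LPS (x axis), in both experiments. In the experiment with both genotypes Psmb8 minus Psmb5 is 1.77 to 2.00 with LPS and -0.16 to 1.59 without; in the wild-type-only experiment it is 1.85 to 2.87 and 1.45 to 2.93.

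Genes around the proteasome were read from lists of its transcription and maturation factors, its associated factors and its ubiquitin supply. Of 9 transcription and maturation genes, 4 rose in the wild-type-only experiment, 3 in wild-type and 1 in null mice of the other, with 0 falling in each and medians of 0.32, -0.18 and 0.04. Of all tested genes 15.1%, 8.55% and 3.95% rose in these sets. Pomp, the chaperone that completes the core particle, rose by 0.35 (adjusted p = 0.0341) and 0.76 (adjusted p = 0.0298) in the wild-type sets and stood at 0.40 in null mice (adjusted p = 0.265). Nfe2l1, the factor that induces proteasome genes when proteasome activity is short, rose by 0.36 (adjusted p = 0.0380) and 1.74 (adjusted p = 0.00194) and stood at 0.69 in null mice (adjusted p = 0.112). Nfe2l2, the factor of the antioxidant response, rose by 0.60 (adjusted p = 0.000435) in the first set and stood at 0.08 and 0.05 in the others. Stat3, a factor activated by cytokines, rose in all 3, by 1.63, 1.84 and 1.34.

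Of 14 associated factors, 4 rose in the wild-type-only experiment, among them the proteasome-binding zinc finger protein Zfand5 (0.89) and the shuttle factor Rad23b (0.85), and Ubqln2 fell, by 0.48. In the other experiment 1 rose in wild-type, Zfand2a (0.96), and 1 in null mice, the deubiquitinase Usp14 (0.77, adjusted p = 0.0493), for which the wild-type sets gave 0.11 and -0.12. Of 6 genes for ubiquitin supply and the unfoldase Vcp with its cofactors, 2 rose in the first (Nsfl1c 0.91 and Ufd1 0.56), 2 in wild-type of the second (Nsfl1c 0.90 and Vcp 0.51) and 0 in null mice. The medians of these lists were 0.15, 0.09 and -0.02, and 0.49, 0.29 and 0.24.

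Abscisic acid gave no call among the members. Under LPS, 0 of 44 passed in the wild-type-only experiment, where 0.108% of all genes did; 5 members had an unadjusted p below 0.05, against 9.21% of all genes, and all 5 were lower with ABA. They were led by Psmd6 at -0.41 ± 0.11 (adjusted p = 0.283), Psma3 at -0.28 ± 0.09 (adjusted p = 0.357) and Psma7 at -0.29 ± 0.11 (adjusted p = 0.432). Without LPS in that experiment, with 2 arrays against 2, 0 passed against 0.514% of all genes, and 3 had an unadjusted p below 0.05, against 9.08%: Psmd6 at -0.80 ± 0.15 (adjusted p = 0.0767), Psma3 at -0.45 ± 0.12 (adjusted p = 0.200) and Psma1 at -0.28 (adjusted p = 0.412). The 2 comparisons use different arrays. The interaction of diet and LPS gave 0 calls against 0.307% of all genes, with 0 members at an unadjusted p below 0.05 against 6.76%; Psmd6 at 0.39, Psme3 at -0.84 and Psmd5 at -0.49 had the smallest p-values, all with an adjusted p of 0.793.

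In the experiment with both genotypes, ABA gave 0 calls in wild-type mice against 0.0299% of all genes, with 2 members at an unadjusted p below 0.05 against 7.38%. Psmd8 was at -0.39 ± 0.10 (adjusted p = 0.347), Psmg4 at -0.59 ± 0.22 (adjusted p = 0.598) and Psme3 at -2.18 ± 0.97 (adjusted p = 0.680). In null mice 0 members and 0 genes passed, with 2 members at an unadjusted p below 0.05 against 3.13%. Psmd8 was at -0.34, Psmg4 at -0.52 and Psmb6 at -0.35. The median change of the members with ABA was -0.07 with LPS and -0.04 without it in the first experiment, and -0.04 in both genotypes of the second.

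Genotype by itself gave no call either. Without LPS 0 members passed, against 0.00748% of all genes, and 0 had an unadjusted p below 0.05, against 2.12%; Psmb1 was at 0.30, Psmd9 at -1.18 and Psmc3ip at -0.73 in null minus wild-type. With LPS 0 passed against 0.0299% of all genes, and 1 had an unadjusted p below 0.05, against 4.52%: Psmg4 at -0.63 ± 0.22 (adjusted p = 0.919, limma). Psmd5 at 0.47 and Psmd8 at -0.16 followed. The members' medians were 0.08 without and -0.07 with LPS.

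Members also varied together across arrays, which is given as a description, since the arrays share LPS, scaling and cell makeup. The median correlation between pairs of the 15 tested core particle genes was 0.75 over the 12 wild-type-only arrays and 0.77 over the 16 others, against 0.53 and 0.60 for the 17 subunits of the regulatory particle and 0.48 and 0.49 for all 44. Over all genes it was -0.02 and 0.00. With group means removed, the core particle's value was 0.14 in the first experiment and 0.63 in the second, and the regulatory particle's 0.34 and 0.67. In the second experiment, replicate 1 of wild-type control without LPS was the lowest of the 16 arrays for 31 of the 44 members. The values with group means removed were not recomputed without that array. Whether the members moved together among replicates apart from it was not tested.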

How the data were processed

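RNA of 28 spleen samples was measured on expression arrays. The values used are log2 expression values per probe set as the authors deposited them; GCRMA and limma are named in the submitters' processing notes, without version or role. Of 45101 probe sets, 34945 named 1 gene, 932 several and 9224 none or a control; these last 2 kinds were not used. Groups came from the sample labels. The members and the gene lists were chosen with earlier results of these data known. Each experiment was fitted alone with 1 mean per group (R 4.3.3, limma 3.58.1, lmFit and eBayes, 8 residual degrees of freedom), on genes above the 40th percentile of their array on at least 2 arrays, and p-values were adjusted over all tested genes with Benjamini-Hochberg at 0.05. LPS changes were averaged over diets. Named were the extremes of each role group, the highest and lowest passing changes, the peptidases, assembly chaperones and activators, and, for diet, genotype and interactions, the 3 smallest p-values. Exchange pairs used exact two-sided permutations of LPS within diet and genotype, adjusted over 6 tests. The scripts were tested on simulated data. Figures used Python 3.11.15 and matplotlib 3.10.9. No 2 arrays were identical. Replicate numbers were not used to pair the arrays in the main fits. The number of arrays limits the precision. Background correction and scaling across an experiment's arrays shift low values most, and the lowest value hides changes beneath it.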

Additional observations from a re-analysis of the deposited data

Results flagged for a closer look

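Of 87 sets of 4 arrays and 1 member that were checked in the wild-type-only experiment, 12 held an array far from the other 3, where chance gives about 5%, and no explanation was tested. On the arrays with ABA and LPS, replicate 3 stood high for Psma4 at 10.26 (others 9.78 to 9.80), for Psmd5 at 8.13 (others 7.77 to 7.83) and for the nearly constant Psmd3 at 7.23 (others 7.19). Replicate 2 stood high for Psmc4 at 12.30 (others 11.58 to 11.68) and Psmf1 at 7.62 (others 6.89 to 6.98), and replicate 1 low for Psme3ip1 at 7.93 (others 8.23 to 8.29). On the arrays with control diet and LPS, Psmb4 was low on replicate 3 at 10.91 (others 11.16 to 11.17). Psmd11 was high on replicate 4 at 10.76 (others 10.16 to 10.26). Psmd9 was high on replicate 1 at 3.74 (others 3.30 to 3.31), Psmg4 on replicate 4 at 2.86 (others 2.34 to 2.37) and Psmd3 on replicate 1 at 7.19, a difference below 0.01. Psma8 at 2.30 on replicate 3 is at its floor. The groups of 2 arrays in the other experiment were too small for this check.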

How the results depend on the processing

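In the wild-type-only experiment 22 members rose with LPS; this count ranged from 17 to 25 as each array was left out, with 0 to 1 falling (Psmd5). The other settings gave 16 to 26, and 1 member fell under quantile normalisation (Psmd3, at -0.14, adjusted p 0.0363 by limma, against 0.01 as deposited, its only change of sign) and 1 in the joint fit of the 20 wild-type arrays (Psmd5). In wild-type mice of the other experiment the count was 11, and 5 to 21 with an array left out, with 0 to 2 falling. It was 6 with no filter, 0 with the erythroid covariate, 7 with high Xist as a term and 26 in the joint fit. In these mice high Xist coincided with LPS on the control diet. Psmd5 was 1 fallen member with array weights, with high Xist as a term and in the joint fit. In null mice the count was 2, and 1 to 6 with an array left out. It was 8 under quantile normalisation and with centred arrays, and 1 with no filter, trended variance, array weights, high Xist as a term or without the arrays of high Cpa1, a pancreas gene. ABA without LPS in the wild-type-only experiment gave 1 with the erythroid covariate (Psmd6) and 0 to 1 with an array left out (Psma3). Every other count of calls for diet, genotype and interactions was 0 in each alternative run.

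The exchange pairs ranged, with an array left out, from -0.23 to 0.51, from -0.07 to 0.43 and from 0.04 to 0.25 in the wild-type-only experiment, and from 0.83 to 1.21, from 1.00 to 1.41 and from 1.53 to 2.29 in the other, for Psmb8, Psmb9 and Psmb10 in turn. Without the arrays of high Cpa1, Psmb10 minus Psmb7 grew by 2.01 in the latter (exact permutation, adjusted p 0.0556). With the mean of all probe sets, Psmb8 minus Psmb5 was -0.37 in the former. Deviations of arrays of the same replicate number in different groups had median correlations of -0.02 (from -0.17 to 0.38) and 0.02 (from -0.70 to 0.51). With 2 arrays per group in the latter experiment, the values for unlike numbers mirror these and give no comparison. Whether replicate numbers stand for a batch is therefore not settled. With the replicate number as a block the counts were 16, 12 and 2, and all genes called in the wild-type-only experiment fell from 1820 risen and 1453 fallen to 1035 and 739. The causes of these differences were not tested.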

Other observations

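Few genes varied closely with Psmb7, whose level was low on 4 arrays of the experiment with both genotypes, and most of these ran opposite to it. They were picked after their values were seen. Of 13377 tested genes, 14 had a correlation of at least 0.9 in size with Psmb7 over the 16 arrays, 3 of them positive. Pdia4 (-0.96), Golt1b (-0.96), Usf1 (-0.94) and Sephs2 (0.92) were among them, as descriptions with no test.

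Single arrays held many members' extremes. In the experiment with both genotypes, replicate 2 of wild-type control with LPS was highest for 19 of the 44 members. In the wild-type-only experiment, replicate 2 of ABA with LPS was highest for 13 members, and replicate 2 of ABA without LPS lowest for 11. High Xist was seen on 12 of 12 wild-type-only arrays and on 6 of the 16 others, and high Cpa1 on 2 arrays of each. In the experiment with both genotypes, both wild-type control arrays with LPS had high Xist and both without LPS did not. On that diet LPS and Xist cannot be told apart in wild-type mice. On the ABA diet the only wild-type array with high Xist was replicate 1 without LPS.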
